A study of Homo sapiens with 4 samples.

Results

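The ubiquitin-specific proteases (USPs) are the largest family of human deubiquitinases, and their mRNAs were measured here in RNA bound to the fragile X protein FMRP and in the lysate it was recovered from. Members were the probe sets whose platform annotation gives exactly 1 gene symbol made of USP and a number, with an optional X or L form, leaving out Y-linked genes and 1 gene that is not reported here. The rule found 45 of the 19775 genes with a symbol of their own, covered by 129 of the 54675 probe sets on the array. USP15 is not among them because its probe sets carry more than 1 symbol in that annotation. The rule used gene names only and no measured value.

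The 2 immunoprecipitates (IP) held RNA recovered with an anti-FLAG M2 antibody from FlagHA-tagged FMRP, washed at 300 mM KCl, and the 2 lysates held total RNA set aside before that step. All 4 samples came from a stable Flp-In T-REx HEK293 line, human embryonic kidney cells in which the tagged FMRP transgene was switched on with 1 µg/ml doxycycline for 16 h. FMRP was therefore expressed from an induced transgene in every sample, no mock IP is among these samples, and the cell line's identity was not checked against marker genes. Each sample was hybridized to its own Affymetrix U133 Plus 2.0 array after labelling of 2 µg RNA. The labels do not say whether replicates came from separate cultures, so p-values measure only the spread between these samples, which may be technical.

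USP enzymes cut ubiquitin from proteins or from ubiquitin chains, through a cysteine protease fold, and so reverse the work of the E3 ligases. Some act on histones, some at the proteasome, some on endosomes or organelle membranes, and several need a partner protein to be fully active. FMRP binds mRNAs and is best known for repressing their translation in neurons. Array values below are log2 probe set signals. A change is the IP mean minus the lysate mean on that scale. A gene is called when the limma adjusted p, taken over all genes tested, is at most 0.05.

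Of the 45 USP genes, 41 were bright enough to test, having a probe set whose average signal reached 4.70, the median of the averages of all probe sets. Each gene was tested through its brightest probe set. Of these, 25 were higher in the IP, 9 were lower and 7 were not called, whereas 11 were higher and 14 lower when each array was instead centred on its hybridization controls, spiked-in RNAs that lay 0.48 higher on the IP arrays. Higher genes made up 61.0% of the USP genes tested, against 35.0% of the 13157 genes tested in all, and lower genes made up 22.0%, against 28.8%. Calls in either direction made up 82.9% of USP genes, against 63.9% of all genes. On the control-centred scale 15.9% of all genes were higher, 48.5% lower and 64.4% called in either direction. The middle USP change was 0.59, between quartiles of -0.31 and 0.94, and the median of all genes was 0.08, between quartiles of -0.48 and 0.61. Hybridization control centring moves every change by the same 0.48, which took the medians to 0.11 for USP genes and -0.40 for all genes. The USP median lay 0.51 above that of all genes, and this centring cannot alter that gap, so it is no check of it. No gene among the 41 owed its place above the filter to the IP or the lysate alone. Without the filter 23 of 45 USP genes were higher and 8 lower (51.1% and 17.8%), against 22.5% and 18.3% of all genes, of which 40.8% were called in either direction.

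**Figure D1:**
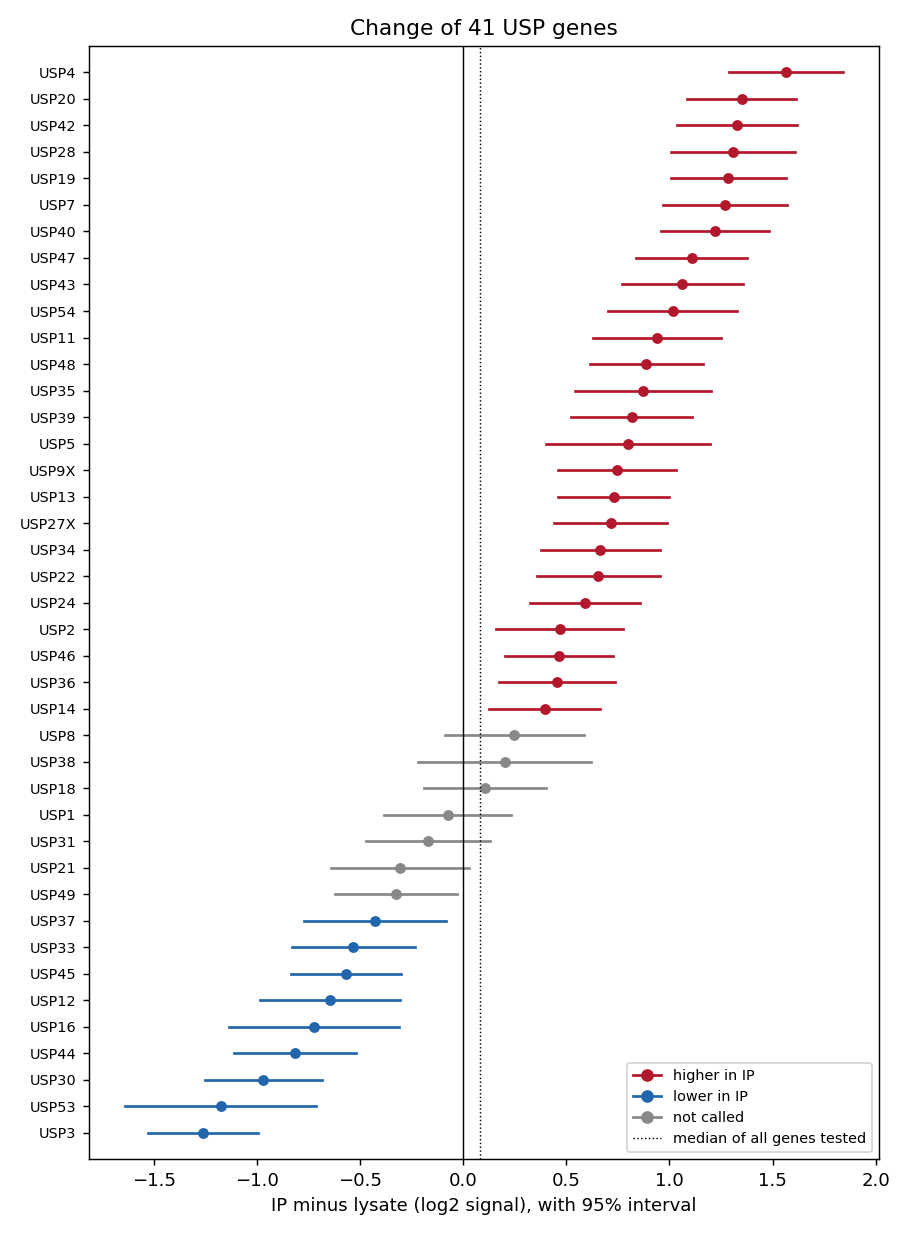
Change of each of the 41 USP genes tested (IP minus lysate, log2 signal; points are changes and lines 95% intervals from limma, 2 arrays per group), with the median of all genes dotted. Changes ran from -1.26 for USP3 to 1.56 for USP4; with hybridization control centring every point moves 0.48 to the left, which turns USP2, USP46, USP36 and USP14 below 0 among the called genes.

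Replicate arrays separated the groups without overlap in each of the 34 called genes. With 2 arrays per group a call makes overlap unlikely, so this adds no support to the calls. Both IP arrays exceeded both lysate arrays in 26 of the 41 USP genes tested, and both were below them in 12, against 45.1% and 37.2% of all genes (82.3% in either direction). At least 2-fold changes were fewer: 10 USP genes were called higher by 2-fold or more and 2 were called lower by that much, against 12.5% and 12.8% of all genes (25.2% in either direction). That balance turned with hybridization control centring, where 1 USP gene (USP4, at 1.09) was called higher by 2-fold or more and 8 were called lower, from USP33 at -1.01 to USP3 at -1.74. The shares of all genes were then 4.16% and 23.8% (28.0% in either direction). Among the called genes 11 of the higher (USP4, USP20, USP42, USP28, USP19, USP7, USP40, USP47, USP43, USP54 and USP11) and 8 of the lower (all but USP37) kept their call under every normalization, filter, probe set choice, spread estimate and left-out array in which they could be tested.

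Of the 10 USPs with a role on chromatin that were tested, 5 were higher and 3 lower, against 35.0% and 28.8% of all genes. With hybridization control centring 2 were higher and 5 lower, against 15.9% and 48.5% of all genes, and the same shares apply to the role groups that follow. USP7, which acts on the ubiquitin ligase MDM2 and other nuclear proteins, had signals of 11.47 and 11.40 on the IP arrays, against 10.05 and 10.28 on the lysate arrays. USP42, a nuclear USP, had 9.48 and 9.52 in the IP, against 8.07 and 8.27 in the lysate. For both genes the IP arrays were well apart from the lysate arrays, and the changes were 1.27 ± 0.13 for USP7 and 1.33 ± 0.12 for USP42 (SE, n = 2 against 2; limma adjusted p = 1.1e-04 and 7.6e-05). USP27X and USP22, which can each serve as the catalytic subunit of a histone H2B deubiquitinating module of the SAGA type, changed by 0.72 and 0.65, and the nucleolar USP36 by 0.46, or by 0.77 as the mean of its probe sets.

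USP3, a deubiquitinase of histone H2A, had the largest fall of the family when each gene is taken by its brightest probe set. Its signals were 7.31 and 7.23 in the IP, against 8.51 and 8.55 in the lysate. It fell by 1.26 on the log2 scale (SE 0.11, n = 2 against 2, limma adjusted p = 6.9e-05). A second USP3 probe set fell by 0.98, and as means of their probe sets USP53 (-1.15) was lower than USP3 (-1.12). USP16, another H2A deubiquitinase, stood at 8.40 on both IP arrays, against 9.39 and 8.86 on the lysate arrays. It changed by -0.72 (SE 0.18, limma adjusted p = 0.0078), and its 3 probe sets lay between -0.80 and -0.56. USP44, linked to the mitotic spindle checkpoint, had 5.43 and 5.30 in the IP, against 6.08 and 6.27 in the lysate, a change of -0.81 (SE 0.13, limma adjusted p = 8.4e-04). The lysate arrays differed by 0.52 for USP16, more than for USP3 or USP44. No IP array reached a lysate array in any of these genes, which the choice of genes shown by array required. USP21 and USP49 changed by -0.31 and -0.33 and were not called (limma adjusted p = 0.096 and 0.055); USP21 was called lower without IP replicate 2, at -0.46. With hybridization control centring both were called lower, at -0.79 and -0.80 (limma adjusted p = 0.0017 and 0.0023). Without that centring the other kept USP49 probe sets stood at -0.54, called lower, and 0.35, not called (limma over probe sets, adjusted p = 0.027 and 0.29).

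USPs of the DNA damage and replication group also moved both ways, with 4 of 7 higher and 2 lower, or 3 and 3 with hybridization control centring. USP28, which stabilises the oncoprotein MYC, had 7.82 and 8.02 in the IP, against 6.55 and 6.68 in the lysate. USP47, which acts on DNA polymerase beta, had 9.65 and 9.62 in the IP, against 8.58 and 8.48 in the lysate. The groups were separate for both genes, with changes of 1.31 ± 0.13 for USP28 and 1.11 ± 0.12 for USP47 (SE, n = 2 against 2; limma adjusted p = 9.2e-05 and 1.2e-04). All 3 USP28 probe sets and all 5 USP47 probe sets were called higher. USP11, a relative of USP4, changed by 0.94, with 12.31 and 12.27 in the IP and 11.21 and 11.49 in the lysate. USP45, which acts on the repair nuclease subunit ERCC1, lay at 4.94 and 4.92 in the IP, against 5.46 and 5.54 in the lysate, close to the filter of 4.70, and changed by -0.57 (SE 0.11, limma adjusted p = 0.0030). USP37 changed by -0.43 (limma adjusted p = 0.034); without lysate replicate 2 the change was -0.25 and without IP replicate 1 it was -0.40, neither of them called. All 3 kept USP37 probe sets were called lower, the dimmer ones at -0.74 and -0.65 (limma over probe sets, adjusted p = 0.0016 and 0.0057). USP1, which removes ubiquitin from PCNA, stood at -0.08, with a 95% interval of -0.38 to 0.23, although its dimmer probe set was called lower, at -0.46. With hybridization control centring USP1 stood at -0.55 and was called lower (limma adjusted p = 0.024).

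Of the USPs tied to splicing, both that were tested were higher, USP4 and USP39, and USP4 alone was called with hybridization control centring (1.09). USP4, which with its targeting factor SART3 deubiquitinates a spliceosome component, had the largest rise of the family by brightest probe set. It had 8.80 and 8.79 in the IP, against 7.15 and 7.30 in the lysate, and was 2.96-fold higher in the IP (change 1.56 ± 0.12 SE, n = 2 against 2, limma adjusted p = 4.0e-05). As the mean of its 3 probe sets USP4 changed by 0.79, still called. Many other USP genes then lay above it, among them USP19 (1.40), USP20 (1.35) and USP42 (1.32). Also above it were USP40 (1.24), USP28 (1.09), USP7 (1.03), USP11 (0.94) and USP47 (0.89). USP39, which lacks deubiquitinase activity and belongs to the tri-snRNP of the spliceosome, changed by 0.82 (SE 0.13, limma adjusted p = 7.7e-04).

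The 3 USPs that act at the proteasome or on free chains were higher by modest amounts, and none was called with hybridization control centring. USP5, which takes apart unanchored ubiquitin chains, changed by 0.80 (SE 0.17), with 8.05 and 7.58 in the IP and 7.09 and 6.93 in the lysate; its IP arrays differed more from each other than its lysate arrays did. USP13, its close relative, changed by 0.73, and its other probe sets by 0.97 and 1.22. USP14, the deubiquitinase that binds the proteasome reversibly, changed by 0.40 (limma adjusted p = 0.018), and was not called without lysate replicate 2 (0.35) or without IP replicate 1 (0.37).

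**Figure D2:**
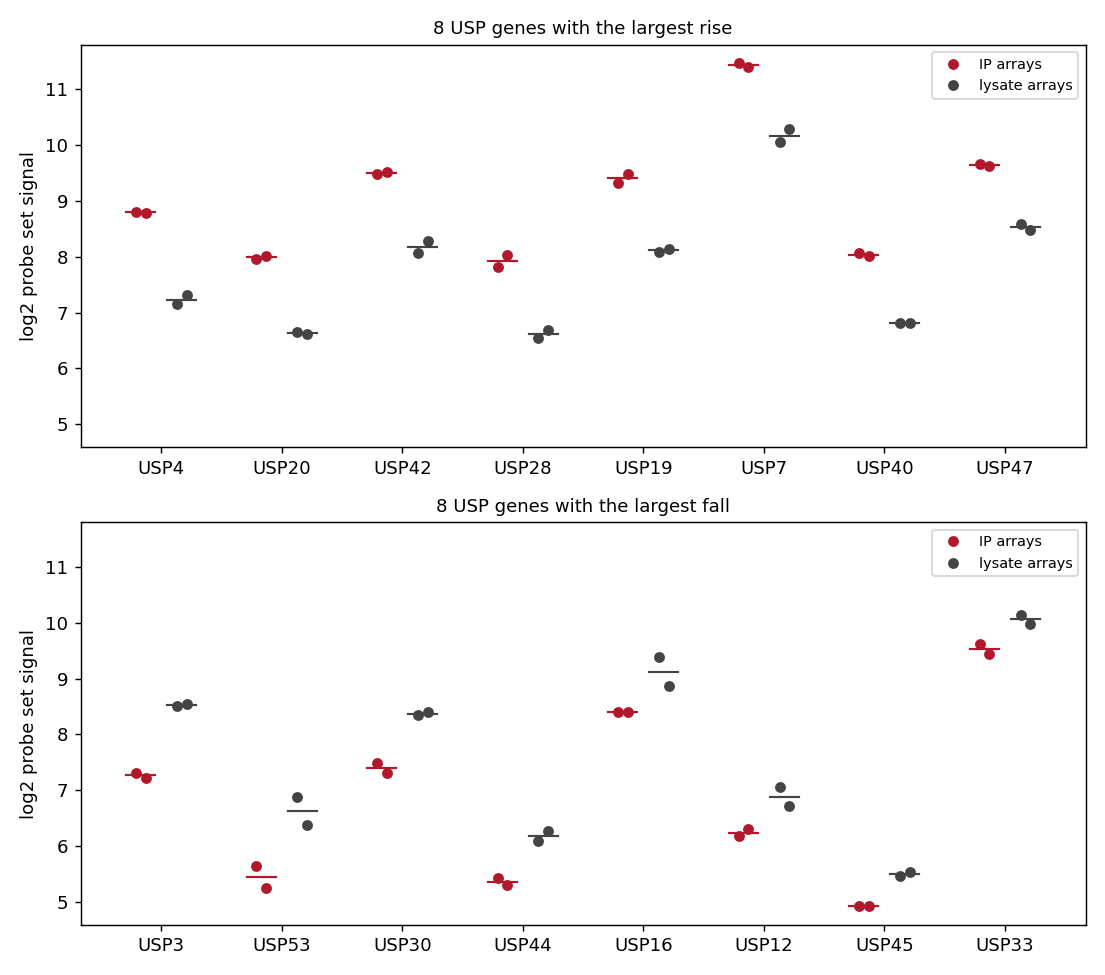
Log2 probe set signal on each of the 4 arrays for the 8 USP genes with the largest rise (top) and the 8 with the largest fall (bottom); points are arrays, bars are group means, IP left and lysate right. Genes were chosen among called genes with non-overlapping arrays. By that choice the IP points lie above both lysate points in every top gene and below both in every bottom gene. Hybridization control centring lowers every change by 0.48, less than any rise shown, so the direction of these 16 genes could not turn.

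Among 7 USPs of membranes, endosomes and organelles, 3 were higher and 3 lower, or 2 and 3 with hybridization control centring. USP20, which acts on recycling receptors, had 7.96 and 8.02 in the IP, against 6.66 and 6.62 in the lysate. USP19, which is anchored in the endoplasmic reticulum membrane, had 9.33 and 9.47 in the IP, against 8.09 and 8.14 in the lysate. Replicates of USP20 and USP19 differed by far less than the groups did, and their changes were 1.35 ± 0.11 and 1.29 ± 0.12 (SE, n = 2 against 2; limma adjusted p = 5.3e-05 and 7.4e-05). The second USP19 probe set changed by 1.52. USP30, which sits in the mitochondrial outer membrane and opposes the ubiquitin ligase parkin, had 7.49 and 7.32 in the IP, against 8.35 and 8.40 in the lysate. It fell by 0.97 on the log2 scale (SE 0.12, limma adjusted p = 2.8e-04). A second USP30 probe set fell by 0.57. The endosomal USP8, which binds STAM proteins, was not called at 0.25 (95% interval -0.09 to 0.58).

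All 3 giant USPs were higher in the IP, though none was called with hybridization control centring, where they stood between 0.11 and 0.27. USP9X, the human counterpart of Drosophila fat facets, changed by 0.74 (SE 0.12, limma adjusted p = 0.0011). USP34, which acts on axin in Wnt signalling, changed by 0.66, and USP24 by 0.59. USP18, which removes the ubiquitin-like modifier ISG15, had 7.54 and 7.71 in the IP, against 7.45 and 7.59 in the lysate. The groups overlapped for USP18, and the change was 0.11 (95% interval -0.19 to 0.40); with hybridization control centring it turned to -0.37 and was called lower.

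The remaining USPs held 5 higher and 1 lower gene of 8, or 3 and 2 with hybridization control centring. USP40, a little-characterized relative of USP7, had 8.06 and 8.02 in the IP, against 6.82 and 6.81 in the lysate, a change of 1.22 ± 0.11 (SE, n = 2 against 2; limma adjusted p = 7.3e-05). USP43, USP54 and USP35 changed by 1.06, 1.02 and 0.87. USP2 changed by 0.47 and was not called without lysate replicate 1 (0.35) or without IP replicate 1 (0.39). USP53, a tight junction protein, had 5.65 and 5.25 in the IP, against 6.87 and 6.38 in the lysate. It fell by 1.18 on the log2 scale (SE 0.20, limma adjusted p = 0.0012), and its 3 kept probe sets lay between -1.18 and -1.11 although the replicates of each group were spread. USP38 and USP31 stood at 0.20 and -0.17 and were not called (95% intervals -0.22 to 0.62 and -0.47 to 0.13), but USP38 was called higher without lysate replicate 1, at 0.47. The kept USP31 probe sets ran from -0.35, called lower, to 0.28, not called (limma over probe sets, adjusted p = 0.039 and 0.10). With hybridization control centring USP31 was called lower, at -0.65 (limma adjusted p = 0.011), and USP38 turned to -0.28, not called.

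Close relatives within the family were called in opposite directions in 4 of the related sets examined. The other sets with more than 1 gene tested are named in the next paragraph. Of the USP genes tested 61.0% were higher and 22.0% lower, and of all genes 35.0% and 28.8%. How often unrelated genes with such shares are called in opposite directions was not worked out, so the count of 4 is a description only. With hybridization control centring only USP20 with USP33 and USP54 with USP53 kept opposite calls among these 4 sets, while USP43 and USP31 gained them. USP46 and USP12 share the activating partners WDR48 and WDR20. USP46 had 8.60 and 8.63 in the IP, against 8.16 and 8.15 in the lysate, and USP12 had 6.18 and 6.31 in the IP, against 7.05 and 6.72 in the lysate. USP46 was higher by 0.46 (95% interval 0.20 to 0.73) and USP12 lower, at -0.64 (95% interval -0.98 to -0.31), while USP46 stood at -0.014 with hybridization control centring and at 0.25, not called, as the mean of its probe sets. USP20 and USP33, a pair that shares its domain layout, also parted, and USP20 is described above. USP33 had 9.61 and 9.44 in the IP, against 10.14 and 9.98 in the lysate, a change of -0.53 (95% interval -0.83 to -0.23). The other kept USP33 probe set changed by -0.22 and was not called (limma over probe sets, adjusted p = 0.16). Both are of the shared class.

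Of the USP22 relatives, USP22 had 11.06 and 11.17 in the IP, against 10.36 and 10.57 in the lysate. USP27X had 7.43 and 7.35 in the IP, against 6.73 and 6.62 in the lysate. These genes were higher while USP3 was lower, and with hybridization control centring neither USP22 (0.18) nor USP27X (0.24) was called. USP54 and USP53 formed the last such set: USP54 had 8.69 and 8.73 in the IP, against 7.56 and 7.84 in the lysate, and the 95% intervals were 0.70 to 1.33 for USP54 and -1.64 to -0.71 for USP53. The difference between the changes of relatives was not tested. Some other sets of relatives were called in the same direction. USP4 and USP11, USP7 and USP47, USP5 and USP13, USP36 and USP42, and USP9X with USP24 and USP34 were all higher. USP16 and USP45 were both lower. In the remaining sets a called gene stood beside a relative that was not called. These were USP35 (higher) with USP38, USP43 (higher) with USP31, USP2 (higher) with USP21, and USP44 (lower) with USP49.

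**Figure D3:**
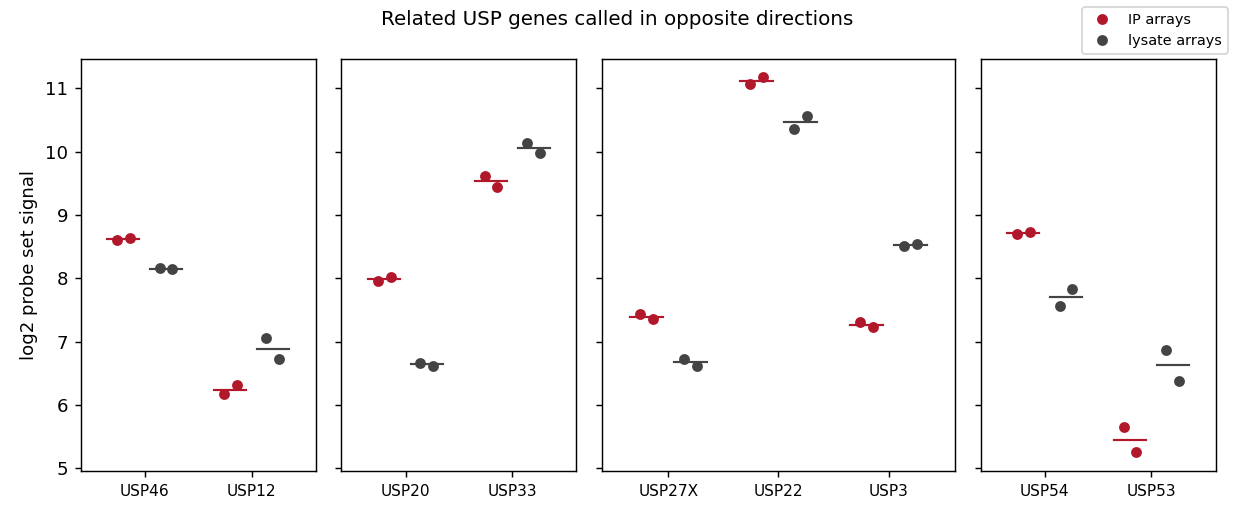
Log2 probe set signal on each array for the 4 sets of related USP genes in which 1 gene was called higher and another lower (points are arrays, bars group means, IP left and lysate right of each gene). USP46, USP20, USP27X, USP22 and USP54 lie higher in the IP and USP12, USP33, USP3 and USP53 lower; with hybridization control centring USP46 turns to -0.014. Levels of different genes come from different probes and are not comparable.

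The genes are covered by 1 to 7 probe sets each, so the probe sets give a view of the family that does not depend on the choice of 1 per gene. Of the 129, 96 passed the filter, 1 of them through its IP level alone, and in a fit over all 27281 kept probe sets 52 were higher and 21 lower. These are 54.2% and 21.9% of the USP probe sets tested, against 31.5% and 28.0% of all, of which 59.5% were called in either direction. With hybridization control centring 23 were higher and 32 lower, against 13.8% and 48.3% of all probe sets (62.1% in either direction). At least 2-fold and called were 19 higher and 4 lower, against 11.6% and 12.7% of all probe sets (24.3% in either direction), and with hybridization control centring 3 higher and 18 lower, against 3.85% and 24.0% (27.8% in either direction). Probe sets of the same gene share a target and are not replicates. Names ending in s, x or a mark probe sets whose probes can match several transcripts, called the shared class here, and 52 of the 129 are of that kind; of the 34 called genes 13 were tested through a shared-class probe set. With the unique class alone 18 of 31 USP genes were higher and 7 lower, against 33.7% and 28.6% of all genes (62.3% in either direction), and 26 USP probe sets were higher and 12 lower, against 30.2% and 27.6% of all (57.8% in either direction).

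Of the 29 genes with at least 2 kept probe sets, 22 had all their changes on the same side of 0. The same share was not worked out for all genes, and it depends on where 0 lies. With hybridization control centring, for example, the USP24 changes of 0.22 to 0.59 would fall on both sides. In 1 gene probe sets were called in both directions. That gene was USP48, a nuclear USP, which was called higher as a gene (0.89 ± 0.12 SE, n = 2 against 2, limma adjusted p = 3.6e-04) through a shared-class probe set. USP48 probe set 220079_s_at had 10.37 and 10.32 in the IP, against 9.52 and 9.39 in the lysate. Probe set 225925_s_at of USP48 had 9.69 and 9.62 in the IP, against 8.90 and 8.79 in the lysate. USP48 probe set 220078_at, of the unique class, had 6.19 and 6.11 in the IP, against 5.26 and 5.04 in the lysate. These 3 rose, by 0.89, 0.80 and 1.00. The fourth, 229812_at, also unique, had 6.10 and 6.27 in the IP, against 6.80 and 6.68 in the lysate, and fell by 0.56 (limma over probe sets, adjusted p = 0.0084). With unique probe sets alone USP48 is represented by the last of these and was called lower, and the mean of its probe sets was 0.53, called higher. Which part of the transcripts each of these probe sets matches was not analysed here.

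USP4 had the widest range: its probe sets 202682_s_at and 211800_s_at rose by 1.56 and 1.15, and 244192_x_at stood at -0.34 (limma over probe sets, adjusted p = 0.091), with 5.60 and 5.76 in the IP and 5.86 and 6.17 in the lysate. All USP4 probe sets are of the shared class. USP42 differed in size only: its 3 kept probe sets were all higher, from 0.78 to 1.86. USP7 was higher on all 4 of its probe sets, from 0.76 to 1.27, and USP36 on all 4 that were kept, from 0.46 to 1.04. USP40 was even, at 1.22 and 1.27. USP34 had 2 probe sets called higher and another at -0.10, not called. USP46 had 1 called higher, with the others at 0.31 and -0.04.

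**Figure D4:**
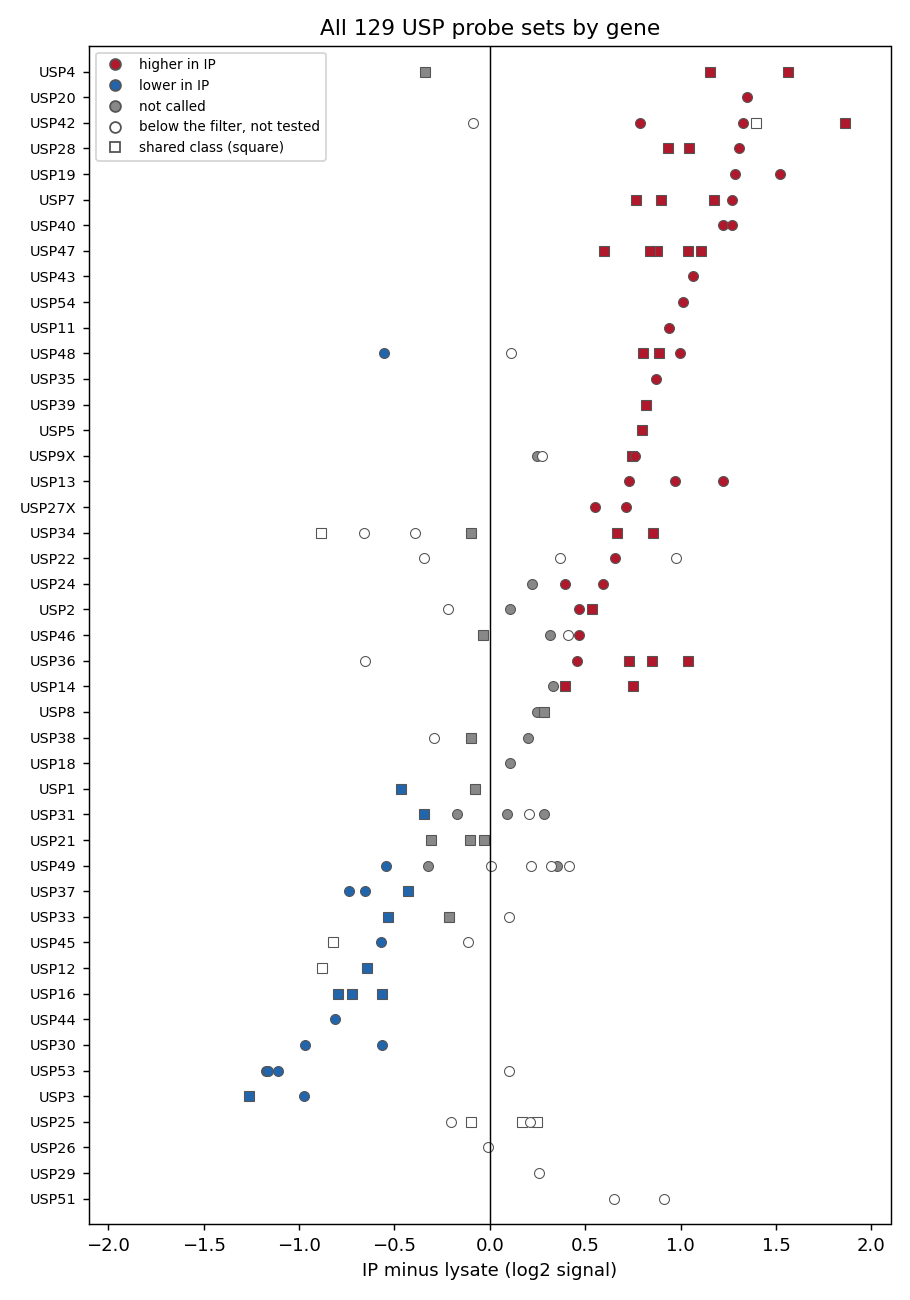
Change of all 129 USP probe sets (IP minus lysate, log2 signal), 1 row per gene in the order of the gene-level change with the 4 untested genes at the bottom; circles are unique and squares shared-class probe sets, filled by call and open where the probe set lay below the filter. USP48 has 3 filled points on the right and 1 on the left, whereas USP53 has 3 filled points close together on the left; with hybridization control centring every point moves 0.48 to the left.

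The 4 genes below the filter were USP25, USP26, USP29 and USP51. USP25, a relative of USP28, reached at most 3.32 on any array in its 5 probe sets, and USP26 at most 2.87 in its only one. USP29 lay at 3.88 and 3.78 in the IP, against 3.44 and 3.71 in the lysate. USP51, a relative of USP22, came closest to the filter, with 4.94 and 4.98 in the IP, against 4.58 and 4.03 in the lysate on its brighter probe set. In the fit without a filter none of these genes was called (limma adjusted p = 0.052 for USP51, change 0.65, and between 0.23 and 0.95 for the others), while the dimmer USP51 probe set was called higher when probe sets were fitted without a filter (0.92). The deposited table holds no detection calls, so a low value has no known floor.

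The other families of deubiquitinases and their domain relatives were examined beside the USPs. Of 38 tested out of 43 listed, 15 were higher and 12 lower around a middle value of 0.10, and with hybridization control centring 6 were higher and 17 lower. The 15 and 12 are 39.5% and 31.6% of those tested, against 35.0% and 28.8% of all genes. On the control-centred scale 15.9% of all genes were higher and 48.5% lower. The OTU family, cysteine proteases with their own fold, held 7 higher and 3 lower of 15 (median 0.29). OTUD7A was 3.80-fold higher in the IP (limma adjusted p = 3.6e-05) and YOD1, which works with the segregase p97, changed by -1.66. A second OTUD7A probe set changed by 0.97 and was also called higher. Among the 7 higher genes are VCPIP1, the only listed gene that passed the filter through its IP level alone, and ALG13, with 2 probe sets called higher and 2 lower (-2.99 to 1.39); both are named after their values were seen.

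Of the UCH family 1 of 3 was lower and none higher: UCHL5, bound to the proteasome, had 7.17 and 6.95 in the IP, against 9.03 and 8.85 in the lysate, and fell by 1.88. All 3 Josephin genes were lower, among them ATXN3, the gene of Machado-Joseph disease (-0.65), and JOSD1 (-0.55). For these small families and the next, the shares of all genes were 35.0% higher and 28.8% lower. The metalloprotease JAMM group split at 4 higher (40%) and 3 lower (30%) of 10, near those shares. MYSM1, an H2A deubiquitinase, stood at -1.32, the translation factor subunit EIF3H at -0.73 and the endosomal STAMBP at 0.68. A second EIF3H probe set gave -2.20, and the STAMBP probe sets ran from 0.36 to 0.84. With hybridization control centring no JAMM gene was higher and 5 were lower, against 15.9% and 48.5% of all genes. In the MINDY and ZUP1 group MINDY3 changed by -2.04 (a second probe set gave -0.53). ZUP1 changed by 0.90. Of the USP-fold relatives that the naming rule leaves out, PAN2, a deadenylase subunit with an inactive USP-like domain, changed by 1.55, CYLD by 0.68 and USPL1 by -0.58. The CYLD probe sets ran from -0.47 to 0.70, with calls in both directions.

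**Figure D5:**
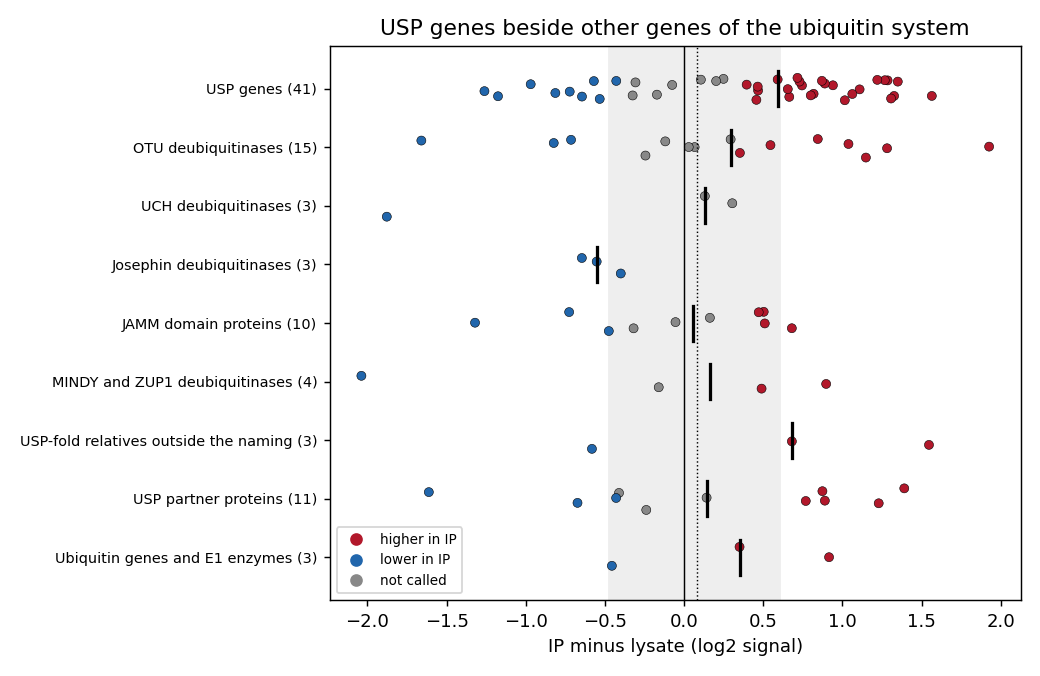
Change of each tested gene (IP minus lysate, log2 signal) for USP genes, the other deubiquitinase families, USP partner proteins and ubiquitin with its activating enzymes; points are genes spread vertically for sight, black bars medians, the dotted line and the grey band the median and quartiles of all genes tested. The USP median is 0.59 and the OTU median 0.29; with hybridization control centring they are 0.11 and -0.19, and the median of all genes is -0.40.

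The partner proteins of USP enzymes were called 5 higher and 3 lower out of 11 (median 0.14), or 3 higher and 5 lower with hybridization control centring. The 5 and 3 are 45.5% and 27.3% of those tested, against 35.0% and 28.8% of all genes. With hybridization control centring 15.9% of all genes were higher and 48.5% lower. HGS, which forms the endosomal sorting complex with the STAM proteins that bind USP8, had 10.26 and 10.42 in the IP, against 8.77 and 9.14 in the lysate, a change of 1.39 (SE 0.15, limma adjusted p = 1.5e-04). STAM2 changed the other way, by -1.61, and STAM stood at 0.14. Other partners are named after their values were seen. SART3, the targeting factor of USP4, changed by 1.23, with 3 of 3 probe sets higher, and WDR48, the activator of USP1, USP12 and USP46, changed by -0.67, with 4 of 4 probe sets lower. GMPS, a partner of USP7 also named after its value was seen, changed by 0.87, but its probe sets ran from -0.08 to 0.87. Of the ubiquitin genes and activating enzymes 3 of 7 were tested: UBA1, the main E1 enzyme, changed by 0.92, UBA6 by 0.35, although its probe sets ran down to -0.64 with 2 called lower, and the polyubiquitin gene UBB by -0.46.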

How the data were processed

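RNA from 2 FMRP immunoprecipitates and 2 lysates was measured on 1 array each, grouped by the sample titles. The values the authors deposited are log2 probe set signals; the scale was read from their range (1.68 to 13.98), and the near-equal array medians (4.67 to 4.71) show a common scaling across arrays, which leaves only differences between probe sets. No source used here names the background correction, summary method or normalization. Scan dates and batches were not used here. Precision is limited by the number of arrays, 2 per group.

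The platform annotation gave 1 gene symbol for 41091 of 54675 probe sets, several for 1801 and none for 11721, with 62 controls left out; 41037 were matched to GRCh38.p14 genes through their Entrez number, used for current names and chromosome only. Probe sets with a mean of at least 4.70 were kept, and the 1 with the highest mean stood for each gene. IP minus lysate was fitted over 13157 genes, and separately over 27281 probe sets, in R 4.3.3 by lmFit and eBayes of limma 3.58.1 (2 residual degrees of freedom) with Benjamini-Hochberg adjustment and a threshold of 0.05. The fit was tested on simulated data. Alternatives covered normalization, filter, probe set choice, replicate block, spread estimate, threshold and left-out arrays; control centring combined with a 2-fold threshold was chosen after seeing the data. Figures used matplotlib 3.10.9 and pandas 2.3.3.

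The members, lists and relatives were chosen with earlier results of these data known. Array values are given for 16 called USP genes with non-overlapping arrays, the 8 that rose most and the 8 that fell most, for USP genes with probe sets called both ways, and for relatives called in opposite directions. Outside this rule they are also given for USP5, USP11, USP18, USP29, USP51, a further USP4 probe set, UCHL5 and HGS. From each other list up to 3 called genes are named, the 2 with the largest change and 1 in the other direction; further genes are named as such. The result of 1 gene is not reported here, and no sequences were used.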

Additional observations from a re-analysis of the deposited data

How the results depend on the processing

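With hybridization control centring the USP genes were 11 higher and 14 lower (median 0.11), the USP probe sets 23 and 32, and the other deubiquitinases 6 and 17; USP2 (-0.012), USP46 (-0.014), USP36 (-0.023) and USP14 (-0.084) turned below 0 among the called genes, without a new call, and USP18 (-0.37), USP1 (-0.55), USP31 (-0.65), USP21 (-0.79) and USP49 (-0.80) were called lower. With unique probe sets 18 of 31 USP genes were higher and 7 lower (median 0.47), USP48 turned to -0.56, USP probe sets were 26 and 12, and other deubiquitinases 9 and 12. At a threshold that also asks for 2-fold, the counts were 10 and 2 for USP genes, 19 and 4 for USP probe sets and 5 and 4 for other deubiquitinases; with hybridization control centring as well, a combination chosen after seeing the data, they were 1 and 8, 3 and 18, and 2 and 10. The USP median was 0.54 with quantile normalization and also with centring on the genes kept, 0.47 without the filter, 0.65 with a mean of at least 6 and 0.49 when a gene's probe sets were averaged. With 1 array left out USP genes were 23 to 25 higher and 8 to 10 lower, USP probe sets 47 to 51 and 14 to 19, and the median 0.55 to 0.58; the lone array of a group was then assumed to vary like the other group. The other alternatives run moved no count by over 1.5 times. With the replicate number as a block, USP genes stayed at 25 higher and 9 lower with no call changed; the labels do not say that a number marks a shared culture, and deviations of same-numbered arrays correlated at 0.10 across genes. Calls near the threshold (USP2, USP36, USP14, USP37) were lost with some array left out, USP36 without lysate replicate 1 (0.37). Signal over background is not known, which limits USP25, USP26, USP29 and USP51. The cause of these shifts was not tested.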
